A study of Mus musculus with 6 samples.

Results

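Simple epithelial keratins and junction genes are the transcripts by which a single-layered epithelium is recognised in mixed tissue. Of this group, 10 genes were followed here in hearts of mouse embryos at embryonic day 9.5, namely the keratins Krt7, Krt8, Krt18 and Krt19, the adhesion genes Cdh1 and Epcam, the claudins Cldn4, Cldn6 and Cldn7, and the transcription factor Grhl2. They were chosen by name with earlier results of these data known, so counts among them are not those of a set picked blind. Every non-control probe whose RefSeq accession mapped to one of them was taken, which gave 12 probes of 39429. Each of the 10 genes was among the 21800 tested, and all 12 probes were well above background on all 6 arrays. The samples were 3 pools from embryos labelled Arid3b-null and 3 pools from wild-type embryos, with 4 embryos per pool. Arid3b encodes a transcriptional regulator of the ARID family, and the labels give neither the strain nor the structure of the null allele. The dissected piece held the heart tube together with the pharyngeal mesoderm and endoderm beneath it, so each array read a mixture of muscle, endocardium, mesenchyme and epithelium.

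Keratins are intermediate filament proteins that assemble only as pairs of a type I chain, here Krt18 and Krt19, with a type II chain, here Krt7 and Krt8. Simple epithelia, among them foregut endoderm, yolk sac endoderm, trophoblast and mesothelium, use these chains. Many of these cells, but not all of the types named, are joined by Cdh1 (E-cadherin), the core of the adherens junction, by Epcam, a surface adhesion protein, and by claudins, the strand-forming proteins of tight junctions. Grhl2, a Grainyhead-like transcription factor, is known in mouse to activate junction genes such as Cdh1 and Cldn4.

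Of 43020 non-control spots per array, 27136 to 29149 were well above background in null pools and 29139 to 31039 in wild-type pools. No spot was saturated. With 3 pools per group, the number of arrays limits the precision of all values. The arrays lay on 3 slides, one pool of either genotype per slide and one scan per slide. Genotype went with the place on the slide, and these cannot be told apart. Arid3b itself, on its brightest probe, read 1.07, 0.52 and 0.45 in null pools 1, 2 and 3, against 2.91, 3.4 and 3.69 in wild-type pools 1, 2 and 3. Signals are in log2 units relative to the 75th percentile of the array. Cardiac muscle transcripts were abundant in both groups: the cardiac troponin gene Tnnt2 read 6.36 to 6.51 in null pools and 6.49 to 6.57 in wild-type pools.

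The null hearts held more Krt18 and Krt19 mRNA, while the junction genes of the group did not pass the test. Krt19 was 8.16-fold higher and Krt18 2.12-fold higher in null pools, and Krt8 was 1.86-fold higher without passing the threshold. Blocking on the slide, which each pool of a given number shared with its counterpart of the other genotype, left Krt19 alone past the threshold and took Krt18 to an adjusted p of 0.0649. Of the 10 genes, 2 rose without the block, 0 fell and 8 did not pass a limma adjusted p under 0.05, where 6.6% of all 21800 genes rose and 3.83% fell, 10.4% in either direction. For 3 of the 10, all higher in null pools, no null pool overlapped a wild-type pool, against 33% of all genes in either direction and 18% in this one. The median log2 change was 0.99 over the 4 keratins and -0.05 over the other 6 members, beside 0.03 over all genes. In bulk tissue such as this, a change in the number of cells of a type and a change in RNA per cell cannot be told apart.

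**Figure D1:**
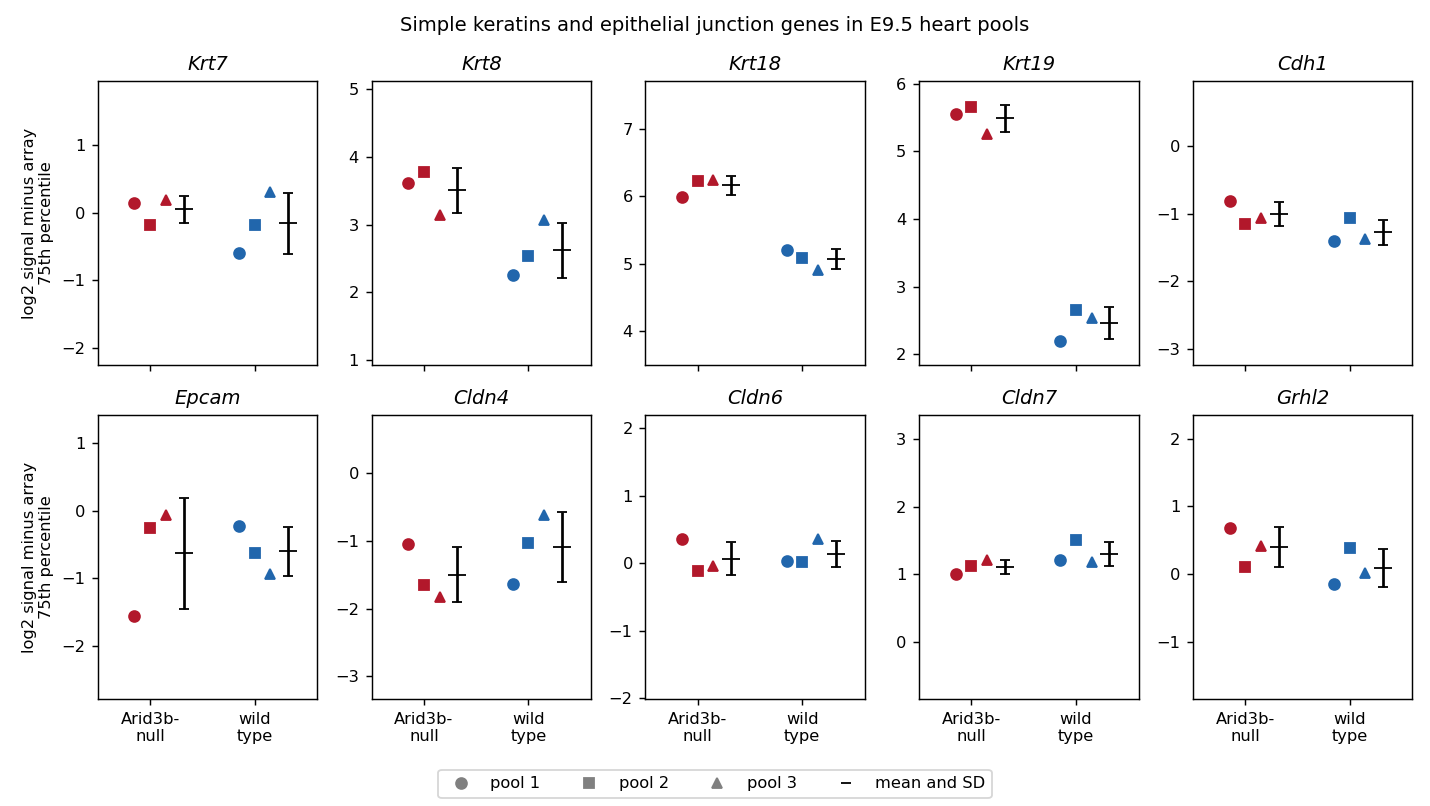
Signal of each of the 10 genes in each pool, in log2 units relative to the 75th percentile of the array, with Arid3b-null pools in red on the left and wild-type pools in blue on the right of each panel, symbols for pools 1 to 3 and the mean with SD (n = 3) in black. All panels span the same number of log2 units. Krt18 and Krt19 are separated between the groups by far more than their spread, Krt8 narrowly, and the other 7 overlap.

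Krt19, the type I keratin that lacks most of the tail domain of other keratins, changed the most. It read 5.55, 5.65 and 5.26 in null pools 1, 2 and 3, against 2.19, 2.65 and 2.53 in wild-type pools 1, 2 and 3. Every null pool lay above every wild-type pool with a wide gap. The means were 5.49 ± 0.2 in null pools and 2.46 ± 0.24 in wild-type pools (SD, n = 3 each), a log2 change of 3.03 (SE 0.19, limma adjusted p = 0.000407). By the size of its rise Krt19 ranked 55 among all 21800 genes. Within slides 1, 2 and 3 the null array exceeded its wild-type neighbour by 3.36, 3 and 2.73, and blocking on the slide gave an adjusted p = 0.00201. Krt19 passed under all 19 alternative settings, with log2 changes from 2.89 to 3.14.

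Krt18, the type I partner of Krt8, rose less. Its signal was 5.99, 6.23 and 6.24 in null pools 1, 2 and 3, against 5.2, 5.09 and 4.91 in wild-type pools 1, 2 and 3. The groups did not overlap, and the spread within each was small. The log2 change was 1.09 (SE 0.16, limma adjusted p = 0.00874). Within slides it was 0.79, 1.14 and 1.33, and blocking on the slide gave an adjusted p = 0.0649, which ended the call. Krt18 passed without any one of the 6 pools (largest adjusted p = 0.0446).

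Krt8, the type II chain that pairs with Krt18, had the same sign but did not pass. It read 3.62, 3.78 and 3.14 in null pools 1, 2 and 3, against 2.25, 2.54 and 3.07 in wild-type pools 1, 2 and 3. Null pool 3 and wild-type pool 3 lay almost together, and the other pools apart. The log2 change was 0.89 (SE 0.26, 95% interval 0.27 to 1.51, limma adjusted p = 0.0756). On slides 1 and 2 the difference was 1.37 and 1.23, and on slide 3 it was 0.07. Of 19 alternative settings, 3 brought Krt8 past the threshold. Whether Krt8 and Krt18 changed by different amounts was not tested, and their 95% intervals overlap (0.7 to 1.47 for Krt18).

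Krt7, the other type II chain, read 0.14, -0.18 and 0.18 in null pools 1, 2 and 3, against -0.6, -0.19 and 0.3 in wild-type pools 1, 2 and 3. The groups overlapped fully. Its log2 change was 0.21 with a 95% interval from -0.37 to 0.79 (limma adjusted p = 0.642). A Krt7 rise as large as that of Krt19 lies outside this interval, while smaller rises lie within it. Krt8, Krt18 and Krt19 each had a single probe, and the probe sequences were not used here, so cross-hybridisation with related keratin copies was not tested.

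**Figure D2:**
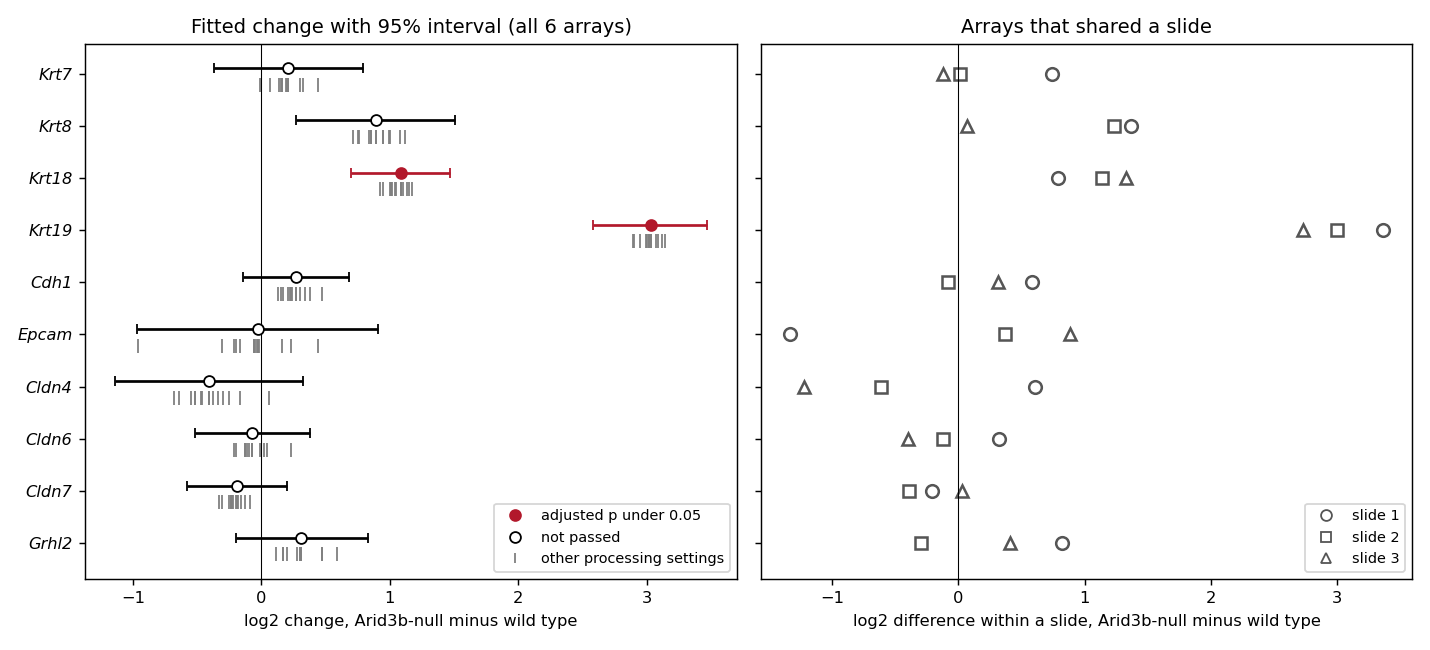
Left, fitted log2 change (Arid3b-null minus wild type) of each of the 10 genes with its 95% interval, filled red where the adjusted p was under 0.05, and grey ticks for the 19 alternative processing settings. Right, the log2 difference between the null and the wild-type array on each of slides 1, 2 and 3. Krt19 stands near 3 in both panels, Krt18 near 1, and Krt8 is positive on slides 1 and 2 and close to 0 on slide 3.

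Krt7, Krt8 and Krt18 lie on chromosome 15, and Krt8 and Krt18 are neighbours with 0 annotated protein-coding genes between them. Their start regions are shown because 2 chains of one filament, encoded side by side, had log2 differences of one sign. The sequences are RefSeq's, in build GRCm38.p6, from 250 bases before to 50 bases after the gene start, 5′ to 3′ on the gene's strand. Capitals mark the GC box GGGCGG and the TATA box TATAAA on either strand.
Krt18, chr15:102027966-102028265, plus strand: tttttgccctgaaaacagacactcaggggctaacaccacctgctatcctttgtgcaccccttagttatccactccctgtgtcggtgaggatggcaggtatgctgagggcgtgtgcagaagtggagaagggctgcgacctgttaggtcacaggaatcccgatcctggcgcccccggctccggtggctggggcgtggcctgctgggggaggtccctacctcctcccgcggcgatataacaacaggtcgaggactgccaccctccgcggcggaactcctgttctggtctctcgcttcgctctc
Krt8, chr15:102004293-102004592, minus strand: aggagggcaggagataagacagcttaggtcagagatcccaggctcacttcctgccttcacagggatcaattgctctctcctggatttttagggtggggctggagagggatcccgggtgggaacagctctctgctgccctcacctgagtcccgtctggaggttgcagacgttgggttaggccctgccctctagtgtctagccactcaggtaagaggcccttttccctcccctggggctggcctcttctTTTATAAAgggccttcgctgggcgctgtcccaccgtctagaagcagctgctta
Krt7, chr15:101412153-101412452, plus strand: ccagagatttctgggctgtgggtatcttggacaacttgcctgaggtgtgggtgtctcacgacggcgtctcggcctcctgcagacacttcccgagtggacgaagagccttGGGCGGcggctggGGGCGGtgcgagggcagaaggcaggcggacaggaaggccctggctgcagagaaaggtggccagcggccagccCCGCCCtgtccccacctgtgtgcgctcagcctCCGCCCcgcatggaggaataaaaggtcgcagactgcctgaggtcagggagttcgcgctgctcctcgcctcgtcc
A script searched both strands for these motifs and for the Grainyhead-like motif AACCNGTT, the AP-1 motif TGANTCA and the hypoxia response core ACGTG. The Krt18 window held 0 matches of the 5 motifs. The Krt8 window held the TATA box, as 2 overlapping matches on opposite strands at the annotated start, and the Krt7 window held 4 GC boxes. A TATA box was present in 13.6% and a GC box in 35.7% of all 32851 promoter windows of that length. Promoters were matched for 7 of the 10 genes, in 8 windows, and not for Krt19, Cdh1 and Grhl2. The Grainyhead-like motif was in 0 of the 8 windows, against 2.09% of all windows, the AP-1 motif in that of Cldn4 (7.81% of all), and the hypoxia response core in that of Epcam (19.6% of all). A match describes the letters of the window only.

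None of the 5 adhesion and claudin genes passed the test in either direction, and 0 had an unadjusted limma p under 0.05. Their median log2 change was -0.07, with a range from -0.41 to 0.27. For all 6 members other than keratins, the upper end of the 95% interval lay under 1 log2 unit, the highest being 0.91 for Epcam. A rise as large as that of Krt18 therefore lies outside the interval of each, although smaller changes in either direction do not.

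Cdh1 was measured with 10 spots of 1 probe. It read -0.81, -1.15 and -1.07 in null pools 1, 2 and 3, against -1.4, -1.07 and -1.38 in wild-type pools 1, 2 and 3. The groups overlapped through wild-type pool 2. The spots of a single array had an SD of 0.05 to 0.11, so the spread between pools (SD 0.18 in null and 0.19 in wild-type pools) was wider than that between spots. The log2 change was 0.27 with a 95% interval from -0.14 to 0.68 (limma adjusted p = 0.37).

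Epcam varied most between null pools. It read -1.56, -0.26 and -0.06 in null pools 1, 2 and 3, against -0.23, -0.63 and -0.94 in wild-type pools 1, 2 and 3. Null pool 1 was the lowest of all 6 pools and null pool 3 the highest. The group means were -0.63 ± 0.82 in null pools and -0.6 ± 0.36 in wild-type pools (SD, n = 3 each), and the log2 change of -0.03 had a 95% interval from -0.97 to 0.91 (limma adjusted p = 0.976). Without null pool 1 the change was 0.44 (adjusted p = 0.298).

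None of the 3 claudins passed. Cldn4, a claudin that tightens junctions against sodium, read -1.04, -1.65 and -1.83 in null pools 1, 2 and 3, against -1.64, -1.03 and -0.61 in wild-type pools 1, 2 and 3. Its log2 change was -0.41 (95% interval -1.14 to 0.32, limma adjusted p = 0.452), and its dimmer probe gave -0.62 (adjusted p = 0.232 with every kept probe tested). With one pool left out it lay between -0.68 and -0.17, at the first of these with wild-type pool 1 left out (unadjusted p = 0.0498, adjusted p = 0.196). The difference was positive on slide 1 (0.61) and negative on slides 2 and 3 (-0.61 and -1.22). Cldn6, a claudin of embryonic epithelia, read 0.36, -0.11 and -0.04 in null pools 1, 2 and 3, against 0.04, 0.02 and 0.36 in wild-type pools 1, 2 and 3. Its log2 change was -0.07 (95% interval -0.52 to 0.38, limma adjusted p = 0.865). Cldn7, a claudin found along the lateral membrane, read 1, 1.12 and 1.22 in null pools 1, 2 and 3, against 1.21, 1.51 and 1.19 in wild-type pools 1, 2 and 3. All 3 claudins thus had overlapping groups, and Cldn7 had the narrowest interval of them, from -0.58 to 0.2 (log2 change -0.19, limma adjusted p = 0.508).

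Grhl2 did not pass on either of its 2 probes. The brighter read 0.68, 0.1 and 0.42 in null pools 1, 2 and 3, against -0.15, 0.39 and 0.01 in wild-type pools 1, 2 and 3. Those groups overlapped, and the log2 change was 0.31 (95% interval -0.2 to 0.83, limma adjusted p = 0.411). The dimmer probe read -3.49, -3.63 and -3.44 in null pools 1, 2 and 3, against -3.98, -3.74 and -3.69 in wild-type pools 1, 2 and 3, with a log2 change of 0.28 (adjusted p = 0.306 with every kept probe tested). Both probes thus gave changes of like size and sign.

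Beyond these 10 genes, 86 other genes of epithelial filaments, junctions, regulators and surface proteins were listed, of which 79 were measured. Of the 79, 8 rose, 3 fell and 68 did not pass, with a median log2 change of 0.23 beside 0.03 over all genes. Among all 21800 genes, 6.6% rose and 3.83% fell. Of the 79 changes, 55 were positive and 24 negative, against 11431 and 10369 over all genes. Whether the list differs from all genes was not tested. The number that rose was 5, 2 and 4 with wild-type pool 1, 2 or 3 left out, and 7, 3 and 5 with null pool 1, 2 or 3 left out, and the number that fell was 1 with wild-type pool 3 left out. When blocked by slide, 1 rose and 1 fell. The calls over all genes changed as well, from 1439 risen and 834 fallen in the main fit to 532 and 199 with the block. With wild-type pool 2 left out they were 591 and 245.

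Among 9 other epithelial keratins measured, 1 rose and 1 fell. Krt5, a type II chain of basal cells in layered epithelia, read -4.14, -4.22 and -3.77 in null pools 1, 2 and 3, against -2.55, -2.55 and -2.33 in wild-type pools 1, 2 and 3. It fell by 1.57 on the log2 scale (SE 0.18, limma adjusted p = 0.00346), with no overlap between groups, and by 0.66 with normexp background correction, which models the background and adds an offset to every signal (adjusted p = 0.0239). Krt17, a type I chain induced in stressed and wounded epithelium, rose by 0.91 from a low signal (SE 0.17, adjusted p = 0.0199), and this call ended when blocked by slide (0.0978) and with normexp (0.57, adjusted p = 0.0537). Over all 26 measured keratin symbols outside the 10 genes, 2 rose and 3 fell, and the median was 0.03. The other risen one was Krt42, a type I chain encoded on chromosome 11 with 4 protein-coding genes between it and Krt19, named after its values were seen. Krt42 read 2.47, 2.9 and 2.34 in null pools 1, 2 and 3, against -0.64, -0.11 and -0.3 in wild-type pools 1, 2 and 3 (log2 change 2.92, SE 0.22, adjusted p = 0.000782). The size and the gap between groups were close to those of Krt19, and whether the Krt42 probe also binds another type I keratin was not tested. The other fallen ones, named likewise, were Krt79 (-0.76, SE 0.17, adjusted p = 0.0361) and Krt36, which no null array read well above background. Krt36 passed the filter on dim probes through the wild-type arrays only, and with normexp background correction its log2 change was 0.21. Krt79 had -0.42 with normexp (adjusted p = 0.116) and lost its call with any one pool left out.

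The other junction lists had few called genes. Of 10 other claudins measured, 0 rose and 2 fell: Cldn10, a channel-forming claudin, by 1.08 on the log2 scale (SE 0.2, limma adjusted p = 0.0194) and Cldn15 by 0.9 (SE 0.17, adjusted p = 0.0199), both from low signals and both lost with the slide as a block (0.074 and 0.104). Normexp background correction took the log2 change of Cldn10 to -0.17 (adjusted p = 0.472) and turned that of Cldn15 to 0.08 (0.735). Of 16 tight junction and polarity genes, 2 rose: Tjp3, the scaffold protein ZO-3, by 0.94 (SE 0.15, adjusted p = 0.0102) and Ocln, occludin, by 0.7 (SE 0.17, adjusted p = 0.0407). Tjp3 and Ocln also lost their calls with the slide as a block (0.0881 and 0.186). Ocln had a low signal, with a mean of -5.17 in wild-type pools. It also lost its limma call with quantile normalization (adjusted p = 0.0696), median scaling (0.0773), normexp (0.0917) and no filter on dim probes (0.107). The authors' values (0.0885) and the trended prior (0.086) ended it too, as did leaving out any one pool but null pool 1. Of 9 adherens junction genes measured, 0 passed the adjusted limma threshold, with 2 higher and 1 lower at an unadjusted p under 0.05: the nectin Nectin1 had a log2 change of -0.71 (adjusted p = 0.0627) and P-cadherin, Cdh3, one of 0.52 (0.0847). Of 10 desmosome and plakin genes, 2 rose: the cytolinker Dst by 1.1 (SE 0.19, adjusted p = 0.0138) and envoplakin, Evpl, by 1.03 (SE 0.23, adjusted p = 0.0322), which the block took to 0.0596 and 0.116.

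Of 11 epithelial transcription and splicing factors, 1 rose, and the median was 0.62 with 10 of 11 changes positive. Klf5, a zinc-finger factor of epithelial progenitors, read -0.66, -0.8 and -1.3 in null pools 1, 2 and 3, against -2.13, -1.87 and -1.56 in wild-type pools 1, 2 and 3 (log2 change 0.93, limma adjusted p = 0.0457, and 0.153 when blocked by slide). Klf5 also lost its call with any one pool left out but null pool 3, and with median scaling (limma adjusted p = 0.0782). Of 14 epithelial surface and traffic genes, 2 rose, among them the cadherin Cdh16 by 1.24 (SE 0.19, adjusted p = 0.0101). Among 8 mesenchymal genes, the zinc-finger repressors and the matrix protein fibronectin included, 0 passed at the adjusted threshold and 2 had an unadjusted p under 0.05: Snai2 had a log2 change of 0.74 (adjusted p = 0.151) and Fn1 one of 0.44 (0.179). The 6 measured non-keratin intermediate filament genes did not pass either, with 0 at an unadjusted p under 0.05, Lmnb1 with -0.32 (adjusted p = 0.255) and the muscle filament gene Des with -0.55 (0.275).

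**Figure D3:**
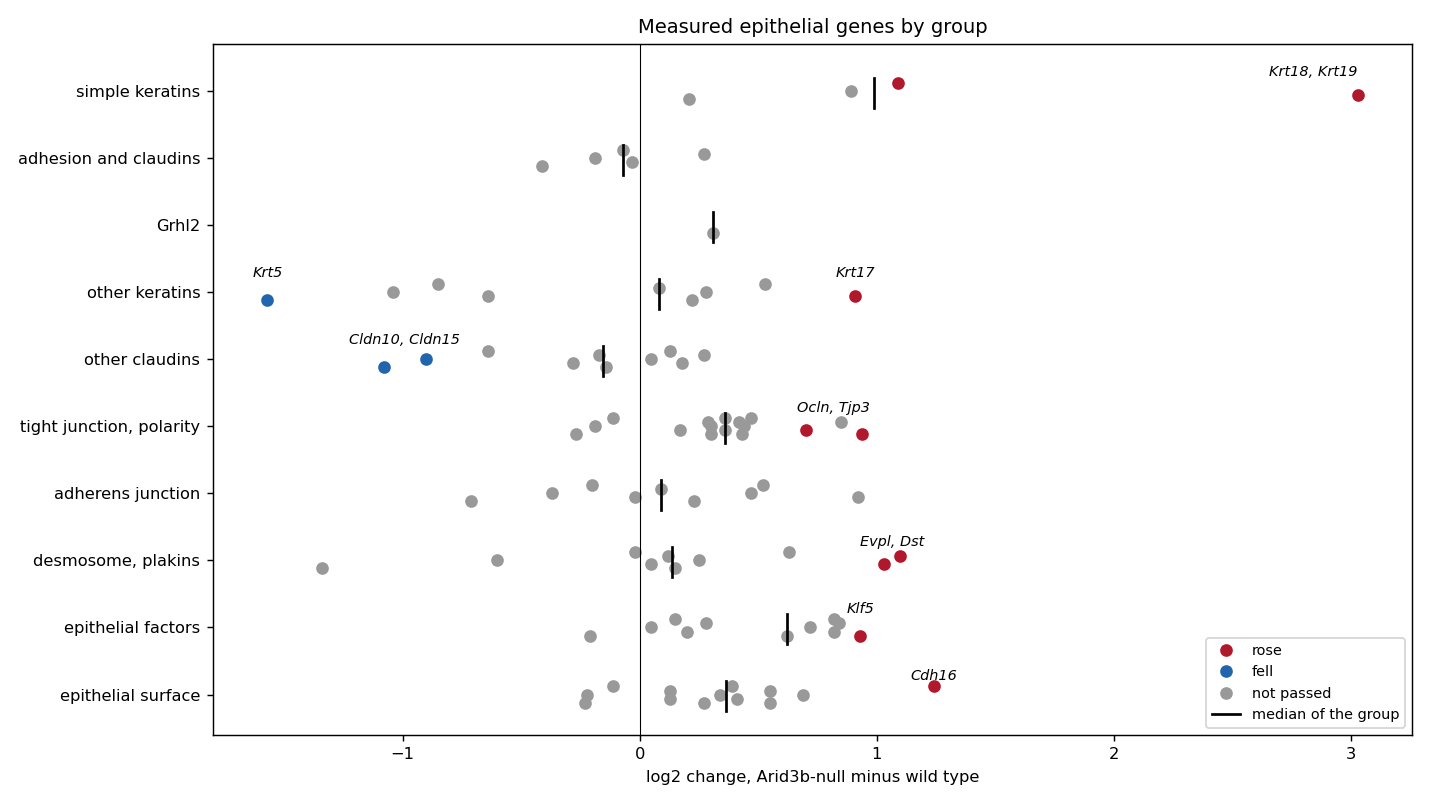
Log2 change (Arid3b-null minus wild type) of the measured epithelial genes, in rows by group (1 gene of the lowest row is not drawn), with the 10 followed genes in the upper 3 rows, risen genes in red, fallen in blue, others in grey and a black bar at the group's median. Krt19 lies apart on the right at 3.03, and Krt5 is the lowest of the called genes at -1.57.

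Several cell types that use simple keratins could be present in these pools, and their markers were read in the same way. Some visceral and yolk sac endoderm markers were higher in null pools too. Over 10 measured markers the mean signal was -2.39, -2.96 and -2.17 in null pools 1, 2 and 3, against -3.67, -4.23 and -3.7 in wild-type pools 1, 2 and 3, and 3 rose, 0 fell and 7 did not pass. The risen were the retinol carrier Rbp4 (log2 change 2.36, limma adjusted p = 0.00103), the transcription factor Hnf4a (2.27, 0.0027, and a log2 change of 0.87 with normexp) and alpha-fetoprotein, Afp (3.56, 0.0194, and not passed without wild-type pool 3). Ttr, transthyretin, read -2.89, -3.81 and -2.61 in null pools, against -4.47, -4.53 and -3.76 in wild-type pools (adjusted p = 0.0815). At an unadjusted limma p under 0.05, 5 of the 10 were higher and 0 lower. For this and every other unadjusted count given here, the share over all genes was not computed. At the adjusted threshold 10.4% of all genes passed in either direction. The remaining measured markers, given beyond the naming rule to complete the list, lay on both sides of 0. Fgb had a log2 change of 2.87 (limma adjusted p = 0.101), Apob one of 0.99 and Apom one of 0.54. The transferrin gene Trf had a log2 change of -0.22, the vitamin B12 receptor gene Cubn one of -0.01 and its partner Amn one of 0.12. Of 12 of these markers with probes, 9 to 11 were well above background in null pools and 8 to 11 in wild-type pools. The part of these cells in the keratin changes was not tested.

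Trophoblast markers differed between the null pools. Over the 7 read on all arrays, the mean was -3.61, -2.91 and -0.71 in null pools 1, 2 and 3, against -3.87, -3.85 and -4.04 in wild-type pools 1, 2 and 3. Of 8 measured, 1 rose: Ascl2, a transcription factor of trophoblast progenitors, which read -0.08, 0.11 and -0.02 in null pools, against -3.79, -3.26 and -3.8 in wild-type pools (log2 change 3.62, limma adjusted p = 0.000297). The placental lactogen gene Prl3d1 read -3.21, -0.97 and 4.78 in null pools 1, 2 and 3, against -3.19, -2.99 and -3.3 in wild-type pools 1, 2 and 3. The other measured markers, given beyond the naming rule, did not pass and lay on both sides of 0. Prl4a1 read -6.05, -3.31 and 1.95 in null pools 1, 2 and 3, against -6.27, -4.7 and -6.5 in wild-type pools 1, 2 and 3. Gcm1 had a log2 change of 1.89, Hsd3b6 one of 0.4 and Plac1 one of 0.3. Psg21 had one of -0.08 and Prl3b1 one of -0.41. Of the 12 markers with probes, 8 to 9 were well above background in null pools and 7 to 9 in wild-type pools, and the spongiotrophoblast gene Tpbpa did not pass the filter on dim probes. The part of trophoblast in the keratin changes was not tested. Epcam was lowest in null pool 1 and highest in null pool 3, the order of the trophoblast mean. This order of 3 pools was noticed after the values were seen, and Krt18 had it too (5.99, 6.23 and 6.24). Krt19 (5.55, 5.65 and 5.26) and Krt8 (3.62, 3.78 and 3.14) did not have it and were lowest in null pool 3. The 75th percentile of the null arrays ran the opposite way (9.48, 9.29 and 9.02). In wild-type pools 1, 2 and 3 this percentile was 9.5, 9.57 and 10.16, also opposite to the order of Epcam there. In wild-type pools 1, 2 and 3 Epcam read -0.23, -0.63 and -0.94, an order that the trophoblast mean did not share. Whether Epcam is linked to the trophoblast markers or to the signal level of the array was not tested.

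Mesothelium and epicardium markers were partly higher. Of 8 measured, 2 rose: Wt1, the Wilms tumour factor of the epicardium, which read 1.97, 1.64 and 1.44 in null pools, against 0.69, -0.01 and 0.13 in wild-type pools (log2 change 1.42, limma adjusted p = 0.0129), and Msln, mesothelin (0.93, adjusted p = 0.039, 0.125 when blocked by slide, and a log2 change of 0.59 with normexp). The list mean was -1.07, -1.33 and -1.5 in null pools 1, 2 and 3, against -1.52, -2.01 and -1.5 in wild-type pools 1, 2 and 3, with pool 3 of both genotypes at the same value. Wt1 lost its call with wild-type pool 2 or 3 left out (limma adjusted p = 0.0578 and 0.0518). Msln lost its call with any one pool left out but wild-type pool 1. The remaining measured markers, given beyond the naming rule, did not pass and lay on both sides of 0. Upk3b had a log2 change of 0.81, Lrrn4 one of 0.4 and Tbx18 one of 0.3. Upk1b had one of -0.03, Aldh1a2 one of -0.4 and Tcf21 one of -0.41. The part of mesothelial cells in the keratin changes was not tested.

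The foregut list had genes that went either way. Its means ran from -1.74 to -1.65 in null pools and from -1.73 to -1.43 in wild-type pools. Of its 12 genes, 2 rose and 1 fell, with 3 higher and 3 lower at an unadjusted p under 0.05, and 7 had groups that did not overlap, against 33% of all genes. The risen were Sox17 (log2 change 1.22, limma adjusted p = 0.00591), a factor of endoderm and also of endothelium, and Pax8 (0.91, 0.0424), and the fallen was the thyroid and lung factor Nkx2-1 (-0.79, 0.0471). Nkx2-1 lost its call with any one pool left out and had -0.24 with normexp (adjusted p = 0.34). The signalling gene Shh, named after its values were seen, had a log2 change of -1.58 without passing (adjusted p = 0.0543). When blocked by slide, Pax8 and Nkx2-1 lost their calls (0.147 and 0.149). Pax8 also lost its call with any one pool left out but wild-type pool 3. Of 8 surface ectoderm markers, 5 of which also stand in the epithelial lists, 1 rose, Tfap2a (0.91, 0.0208, and 0.109 with the block), and 1 fell, Krt5. Of 9 cardiomyocyte markers 1 rose, the natriuretic peptide gene Nppa (1.27, 0.00775). Of 7 endothelial markers 0 passed in limma, and 0 at an unadjusted p under 0.05, with log2 changes of 0.37 for Kdr and 0.33 for Cdh5.

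**Figure D4:**
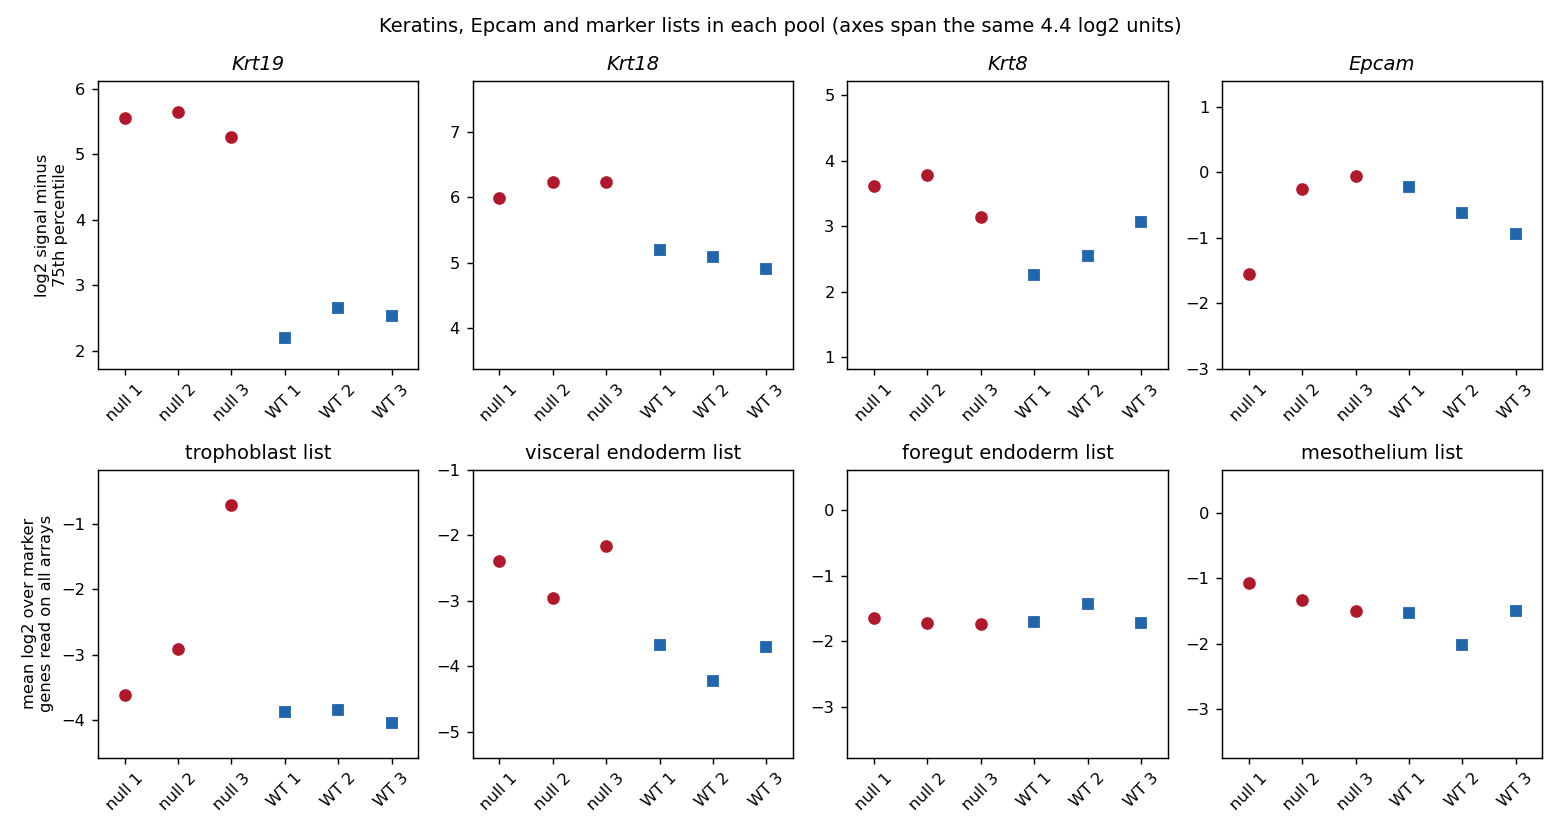
Signal of Krt19, Krt18, Krt8 and Epcam in each pool (upper row, log2 units relative to the 75th percentile of the array) and mean signal of 4 marker lists over the genes read on all arrays (lower row), with Arid3b-null pools in red on the left and wild-type pools in blue on the right. The visceral endoderm mean is higher in all 3 null pools, from -2.96 to -2.17, and the trophoblast mean is highest in null pool 3, at -0.71, then null pool 2, at -2.91, with null pool 1, at -3.61, nearest to the wild-type pools.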

How the data were processed

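The intensity values deposited for each array came from Agilent Feature Extraction 10.7.3.1 on design 026655, per the file headers. Its processed signal is background-subtracted and not scaled between arrays. The deposited spot flags (brightness over background, saturation, outliers) were used too. The authors also deposited log2 values for 24158 probes, whose scaling the sources used here do not state. Their column medians were 6.76 to 6.77, and they correlated at 0.9994 or more with the scanner signal on each array.

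Outlier spots were left out, log2 signals were set relative to each array's 75th percentile, and spots of a probe were averaged. A probe was kept if 3 or more arrays read it well above background, which left 26848 of 39429. Symbols came from RefSeq accessions, versions removed, in the gene table of GRCm38.p6 (26424 probes matched), while the file headers name mm9. The brightest kept probe stood for a gene, and 15233 of the 21800 genes had a symbol. The test was limma's moderated one (lmFit, eBayes; version 3.58.1, in R 4.3.3), two-sided, with Benjamini-Hochberg adjustment over all 21800 genes and a threshold of 0.05. Changes are null minus wild type, and intervals are at 95%. For Gcm1, in the trophoblast list, an outlier spot removed the reading of null pool 1. The procedure was tested on simulated data with independent noise for each gene and array. These data held no slide or position effect, so that test does not bear on such effects.

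The members and lists were chosen with earlier results of these data known. Named were all 10 members, up to 3 called genes per list by p, or 2 uncalled ones where none passed, and Arid3b, Prl3d1, Afp, Ttr and Tpbpa. Others are marked, and 1 gene is not reported here. Same-numbered pools shared a slide and a scan, and the main fit did not block on this. The correlation of same-numbered deviations across genes was -0.41, -0.09 and -0.41. With 3 pools per group, these values do not settle whether the samples were paired in any other way. The alternatives were quantile normalization, median scaling, normexp with an offset of 50, no or a stricter filter on dim probes, outlier spots kept, the mean of probes, every probe tested, the authors' values, a trended robust prior, weights per array, a block for slide, each pool left out, and null pool 1 alone.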

Additional observations from a re-analysis of the deposited data

How the results depend on the processing

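Krt19 passed under all 19 alternatives. Krt18 passed under 17, and lost its call with the replicate block of pool number, which is the slide (log2 change 1.09, limma adjusted p = 0.0649), and with null pool 1 alone (0.92, 0.167). The count of followed genes that rose was thus 1 under both, against 2 in the main comparison, and 2 without any one pool; it was 3 with normexp, the trended prior and array weights, which added Krt8 (0.85, 0.89 and 0.99). The 0 genes that fell stayed 0 throughout (range 0 to 0 without one pool), with 0 at an unadjusted p under 0.05. Of other epithelial genes, 8 rose and 3 fell. The split was 6 and 6 with median scaling, 3 and 1 without the filter on dim signals, 1 and 1 with the replicate block and 0 and 1 with null pool 1 alone; 5 fell with the trended prior and with array weights; without one pool 2 to 7 rose and 1 to 4 fell. Signs near 0 turned: Epcam to 0.23 with array weights, 0.16 when wild-type pool 1 was left out and 0.44 when null pool 1 was (range without one pool -0.31 to 0.44); Krt7 to -0.01 without wild-type pool 1; Cldn6 to 0.04 when wild-type pool 3 was left out, 0.02 when null pool 2 was (range -0.21 to 0.04) and 0.23 with null pool 1 alone; and Cldn4 to 0.06 with null pool 1 alone. None of these passed. The cause of these shifts was not tested. The settings also differed in the number of pools and of genes tested (32530 without the filter), and in the calls over all genes. These were 1439 risen and 834 fallen in the main comparison, 1093 and 1435 with median scaling, and 754 and 283 without the filter. They were 532 and 199 with the block, 1569 and 1070 with the trended prior, and 2140 and 1407 with array weights. Without one pool 590 to 1177 rose and 245 to 581 fell. The median change of all genes was 0.03, and -0.11 with median scaling, 0.16 with normexp and 0.17 with no filter. Signal over background limits the dim genes, such as Krt17, Krt36, Cldn10 and Cldn15. Krt17, Cldn10, Cldn15 and Tfap2a also lost their calls when some single pools were left out.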
